A study of Mus musculus with 36 samples.

Results

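Coenzyme Q genes were followed in the liver of mice fed quercetin, a plant flavonol, with Coq10b as the gene of interest. The set had 10 members, taken by gene name: Coq10b, Coq10a, Coq2, Coq3, Coq5, Coq6, Coq7, Coq9, Pdss1 and Pdss2. Coq10b was chosen by its difference between quercetin-fed and control mice in these samples, so that difference is described and not tested. All 10 were on the array, with 16 of its 41174 probes and among 21377 named genes. The authors' table of expressed probes held 7 of them, with 12 of 21781 probes. All mice were adult males, given as C57BL/6J in the labels and as the substrain C57BL/6JOlaHsd in the study's methods. By the labels they were kept for 3 weeks on a mild-high-fat diet with 30% of energy as fat (the methods give a shorter adaptation) and fasted for at least 2 hours before death. The baseline group (12 mice, labelled t=0) was killed at that point. The control group (12 mice, labelled HF) stayed on the diet for 12 further weeks, and the quercetin group (12 mice, labelled HF-Q) received it with 0.33% (w/w) quercetin for the same time. Baseline mice were thus younger than both other groups, and diet time and age cannot be told apart in comparisons with them.

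Coenzyme Q (ubiquinone) is a lipid that carries electrons in the inner mitochondrial membrane. It takes them from the respiratory dehydrogenases and from enzymes of fatty acid, amino acid, choline and sulphide oxidation, and hands them to complex III. Its long isoprenoid tail is made by PDSS1 and PDSS2 from products of the mevalonate pathway, COQ2 joins tail and ring, and COQ3, COQ5, COQ6 and COQ7 modify the ring, with COQ9 as the lipid-binding partner of COQ7. COQ10A and COQ10B are lipid-binding proteins of the START family that are needed for coenzyme Q to function in respiration and do not catalyse a step of its synthesis.

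The sequence before the Coq10b start is shown because Coq10b moved with clock genes between mice (values below), and motifs bound by clock factors were then looked for. The window of RefSeq build GRCm38.p6 at chr1:55052520-55052769, plus strand, 250 bases ending at the start site, reads 5′ to 3′ with matches in capitals:
Coq10b upstream window: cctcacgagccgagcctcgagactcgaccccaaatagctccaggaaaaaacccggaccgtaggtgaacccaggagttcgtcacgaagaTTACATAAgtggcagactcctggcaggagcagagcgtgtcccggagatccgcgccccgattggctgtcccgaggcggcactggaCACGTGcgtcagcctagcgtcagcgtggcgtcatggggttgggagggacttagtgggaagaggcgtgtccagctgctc
The capitals mark TTACATAA, the reverse strand of the D-box TTATGTAA to which DBP, TEF and HLF bind, 162 to 155 bases before the start, and the E-box CACGTG to which CLOCK and BMAL1 bind, 78 to 73 bases before it. Both strands of windows of 300 bases (250 before and 50 after each start) were searched. The E-box letters were in 7.15% and the D-box letters in 0.938% of 32851 mouse windows. Of the 9 members with a window (all except Coq5), Coq10b alone held either motif. Among the other coenzyme Q genes, Coq4 held the E-box letters and Coq8a held neither motif. The letters TAGGTCA, of the element bound by REV-ERB and ROR, were in 2.61% of all windows, and the letters of the AGGTCA direct repeat with a spacer of 1 base, bound by PPAR-alpha, in 0.0396%. Neither was in a window of the 9 members. These matches describe letters and not binding.

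Values are log2 signals of the liver sample, scaled through the Cy3 pool, and a difference of 1 is a 2-fold change. Brightness depends on the probe, so levels are compared between mice and not between genes. On 35 arrays Feature Extraction marked between 56.4% and 67.4% of Cy5 spots as clearly brighter than background, and on the remaining array, quercetin replicate 2, 96.7%. Of 6 hepatocyte markers 5 were in the table, among them Alb and Apoa1. In whole liver, fewer cells of a type and less RNA per cell cannot be told apart.

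Coq10b was highest in quercetin-fed mice, lowest in control mice and in between at baseline. Its brightest probe had a mean of 11.83 ± 0.74 (SD, n = 12) in the baseline group, 11.29 ± 0.41 in the control group and 12.18 ± 0.42 in the quercetin group. Baseline mice ran from 10.72 through a median of 11.83 to 12.85, control mice from 10.65 through 11.27 to 12.09, and quercetin mice from 11.27 through 12.15 to 12.92. The 3 ranges overlapped, and 11 of 12 quercetin mice lay above the control median. Quercetin minus control was 0.89 (SE 0.16, 95% interval 0.57 to 1.21), a 1.85-fold higher signal. This is the contrast that chose the gene. Control minus baseline was -0.54 (SE 0.22, adjusted p = 0.0823 by limma), with 10 of 12 control mice below the baseline median. Quercetin minus baseline was 0.35 (SE 0.22, adjusted p = 0.333), with 10 of 12 mice above the baseline median. Neither neighbour in the order of levels therefore differed from baseline past the threshold. Both of these differences reuse mice from the contrast that chose Coq10b, the control mice in the first and the quercetin mice in the second. Control minus baseline passed the threshold under 2 of 14 alternatives, array weights (adjusted p = 0.037) and a replicate block (adjusted p = 0.0443). The highest adjusted p of the 14 was 0.262.

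**Figure D1:**
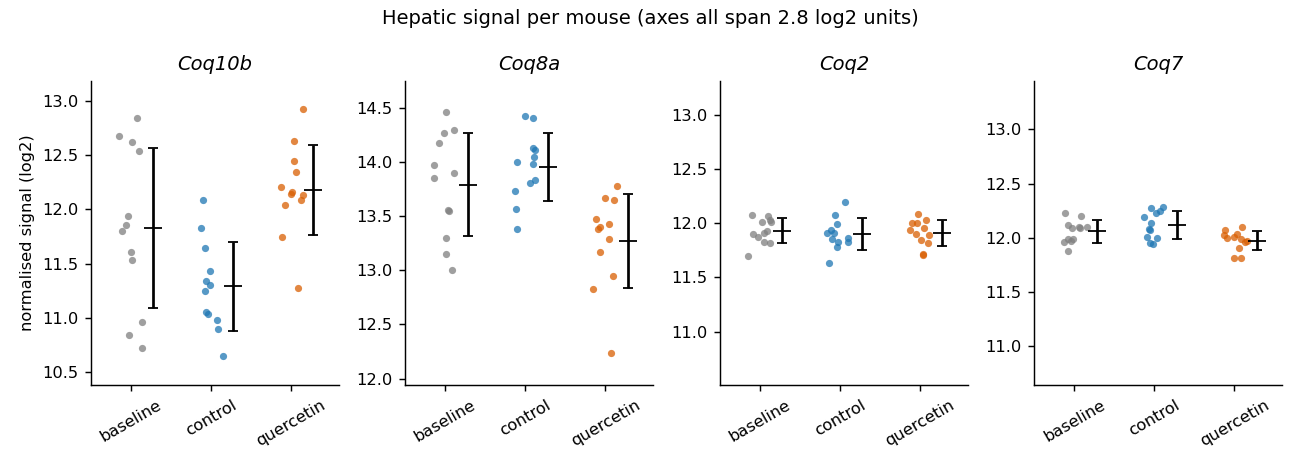
Normalised log2 signal per mouse (points, 12 per group) with group mean and SD (black) for Coq10b, Coq8a, Coq2 and Coq7, each on an axis of the same span. Coq10b is spread over 10.65 to 12.92 with the quercetin mice high, Coq8a is low in the quercetin mice, and Coq2 and Coq7 vary little.

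The other Coq10b probes in the table gave the same order. All 3 probes lie on chromosome 1, at chr1:55016882-55016941 (the brightest), chr1:55016280-55016338 and chr1:55008902-55012084 in the array's mm8 coordinates, plus strand. Quercetin minus control was 0.71 and 0.84 at the second and the third. Group-centred values of the 3 probes correlated pairwise at r between 0.91 and 0.99 over 36 mice. A further probe of the gene, against transcript AK089038 at chr1:54998045-54998104, was well above background on 17 of 36 arrays and was not in the table. Within slides, which each held all 3 groups, Coq10b was higher in quercetin than in control mice on 8 of 9 slides, with differences from -0.12 to 1.85. These values belong to the contrast that chose the gene and are description only.

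Coq10b varied widely between mice of 1 group. Its pooled SD within groups was 0.54, above that of 98.4% of all probes, whose median was 0.18. The other 6 members in the table had pooled SDs of 0.11 to 0.18. The baseline SD was 1.79 times the control SD, a ratio reached by 4.86% of all probes. Baseline mice numbered 1 to 6 had a mean of 11.30 ± 0.51 (SD, n = 6) and ran from 10.72 to 11.85, and those numbered 7 to 12 had a mean of 12.36 ± 0.51 and ran from 11.53 to 12.85. The same split gave means of 11.24 and 11.34 in control mice and 12.22 and 12.13 in quercetin mice. By these means control mice lay near the first set of baseline mice and quercetin mice near the second. The split was made after seeing the data, so these values are description only. The labels do not say what the numbers stand for, and their part in the comparisons with baseline was not tested.

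No measured gene of coenzyme Q synthesis in the set rose with Coq10b in quercetin-fed mice. Of the 7 measured members, 1 was called in quercetin minus control, Coq10b itself, beside 2.36% of all probes, and nothing is read from that count. In control minus baseline 0 of 7 passed, beside 21.3% of all probes, and in quercetin minus baseline 0 of 7, beside 11.9%, by limma. The methods' t-test also called 0 of 7 in both comparisons with baseline. At an unadjusted p under 0.05 there was 1 member in each (Coq10b and Coq6), beside 7722 and 5766 of 21781 probes. For the 6 members other than Coq10b, quercetin minus control lay between -0.14 and 0.03, and their 95% intervals together spanned -0.25 to 0.14. Their median difference was -0.03, where that of all probes was 0.01.

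For tail synthesis, Pdss1 had means of 8.71 ± 0.19 at baseline, 8.70 ± 0.19 in control and 8.67 ± 0.16 in quercetin mice, and quercetin minus control was -0.03 (interval -0.17 to 0.12). For the joining of tail and ring, Coq2 had means of 11.93 ± 0.12, 11.90 ± 0.14 and 11.91 ± 0.12, and the difference was 0.01 (interval -0.11 to 0.13). Both genes had nearly superimposed groups.

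Of the ring-modifying enzymes, the C-methyltransferase Coq5 had medians of 10.49 at baseline, 10.46 in control and 10.48 in quercetin mice (SD 0.13, 0.13 and 0.17), and quercetin minus control was -0.03 (interval -0.16 to 0.10). The monooxygenase Coq6 had medians of 9.14, 9.02 and 8.97 (SD 0.13, 0.15 and 0.11). Quercetin minus baseline for Coq6 was -0.15 (SE 0.05, adjusted p = 0.0649), with 11 of 12 quercetin mice below the baseline median. It passed under 1 of 15 alternatives, array weights (adjusted p = 0.0425).

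The hydroxylase Coq7 had means of 12.06 ± 0.10 at baseline, 12.12 ± 0.13 in control and 11.97 ± 0.09 in quercetin mice. Control mice ran from 11.94 through a median of 12.11 to 12.28, and quercetin mice from 11.81 through 11.99 to 12.10, so that all 12 quercetin mice lay below the control median while the ranges overlapped. Quercetin minus control was -0.14 (SE 0.05, unadjusted p = 0.00812) and did not pass adjustment (adjusted p = 0.144). This small difference had the opposite sign to that of Coq10b. Its partner Coq9 had means of 11.33 ± 0.14, 11.24 ± 0.09 and 11.28 ± 0.13, and control minus baseline was -0.09 (adjusted p = 0.237), a difference that passed under 4 of 14 alternatives and turned to 0.04 with median centring of the scanner ratios.

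**Figure D2:**
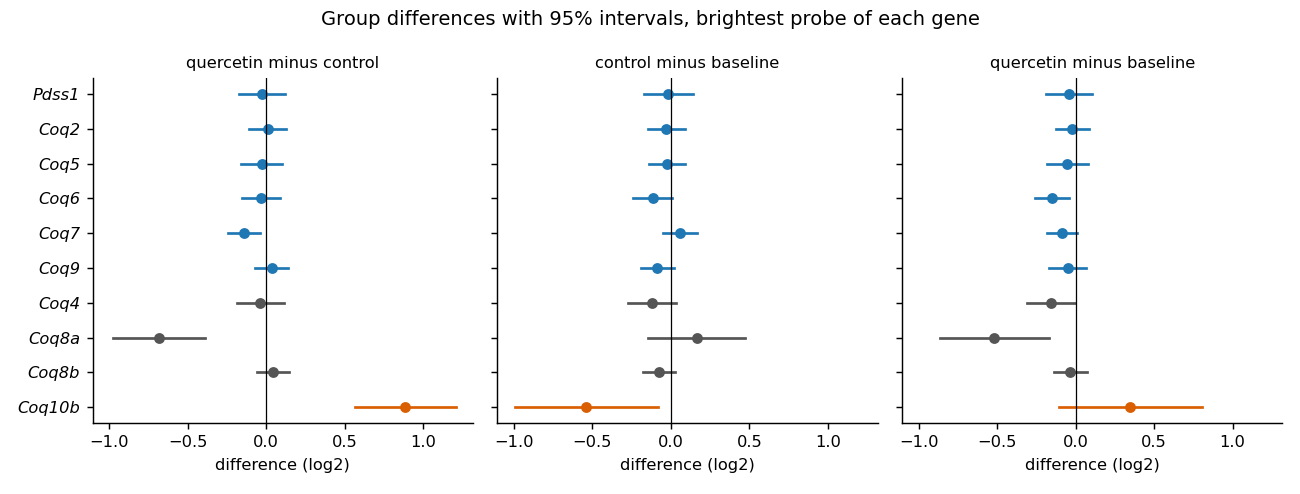
Log2 differences between groups (x axis, points) with 95% intervals (lines) for the brightest probe of each coenzyme Q gene, members in blue, other coenzyme Q genes in grey and Coq10b in orange. In quercetin minus control Coq10b lies at 0.89 and Coq8a at -0.68, and the other members lie between -0.14 and 0.03.

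The 3 members outside the table were dim. Coq10a, the paralog of Coq10b, was well above background in Cy5 on 1 of 36 arrays, the O-methyltransferase Coq3 on 3 and the tail-synthesis subunit Pdss2 on 0. Their mean Cy5 signals were 1.34, 1.42 and 1.19 times the background. No group difference is given for them, and a change in these genes was not detectable with these probes.

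Outside the 10 members, a list of other coenzyme Q genes held Coq4, Coq8a, Coq8b and Hpdl, and 3 were in the table. Coq8a, labelled Cabc1 on the array, encodes an atypical kinase-like ATPase that supports the synthesis complex. Baseline mice ran from 13.01 through a median of 13.88 to 14.46, control mice from 13.38 through 13.99 to 14.43, and quercetin mice from 12.24 through 13.39 to 13.78. All 12 quercetin mice lay below the control median, and the ranges overlapped. Coq8a fell by 0.68 in quercetin minus control (SE 0.14, adjusted p = 0.00842), a 1.60-fold lower signal, and its second probe by 0.52 (adjusted p = 0.0239). The difference was negative on 9 of 9 slides, and with the slide as a fixed block it was -0.62 with adjusted p = 0.0569. Against baseline, quercetin mice were lower by a difference of -0.52 (adjusted p = 0.045). That call was lost without quercetin replicate 2 (adjusted p = 0.0669) and held under 7 of 15 alternatives. Control minus baseline was 0.16 (adjusted p = 0.455). In quercetin minus baseline the second Coq8a probe gave -0.29 (adjusted p = 0.227).

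Coq8b, labelled Adck4 and related to Coq8a, showed a quercetin minus control difference of 0.04 (interval -0.06 to 0.14). Coq4, a component of the synthesis complex, had a difference of -0.04 (interval -0.19 to 0.11). The probes of Coq4 disagreed in control minus baseline, at -0.12 (adjusted p = 0.24) for the brighter and -0.28 (adjusted p = 0.00392) for the dimmer. Hpdl was well above background on 22 of 36 arrays and was not in the table.

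Whether another coenzyme Q gene followed Coq10b was asked between mice of the same group, with group means removed. All arrays share the Cy3 pool, and 14 correlations were computed. None of the 6 other members passed (limma slope on Coq10b, adjusted over 21778 probes, 2.99% called). At an unadjusted p under 0.05 there were 0 of these members, beside 3745 of 21778 probes. Their slopes lay between -0.01 and 0.07, with intervals that together spanned -0.09 to 0.16, so within these intervals 1 log2 unit of Coq10b went with at most 0.16 in each. The highest correlation was that of Coq2 (r = 0.31, permutation p = 0.0588, rho = 0.19, permutation p = 0.282, r = 0.24 without the 2 mice farthest from the Coq10b median). Coq7 had the lowest (r = -0.06, rho = -0.10).

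Coq8a moved opposite to Coq10b. Its slope was -0.46 (SE 0.10, adjusted p = 0.00693), with r = -0.61 (permutation p = 0.00037) and rho = -0.62 (permutation p = 0.00028). Without the 2 mice farthest from the Coq10b median r was -0.60. Within groups r was -0.79 at baseline, -0.53 in control and -0.34 in quercetin mice. With the numbers 1 to 6 and 7 to 12 of each group taken apart, a choice made after seeing the data, r was -0.52 and the slope of -0.42 no longer passed (adjusted p = 0.11). Coq4 also had a negative slope (-0.16, adjusted p = 0.0748, r = -0.49), and it passed under 1 of 9 alternatives, the scanner's loess ratios (adjusted p = 0.0371). Coq8b had r = 0.04.

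**Figure D3:**
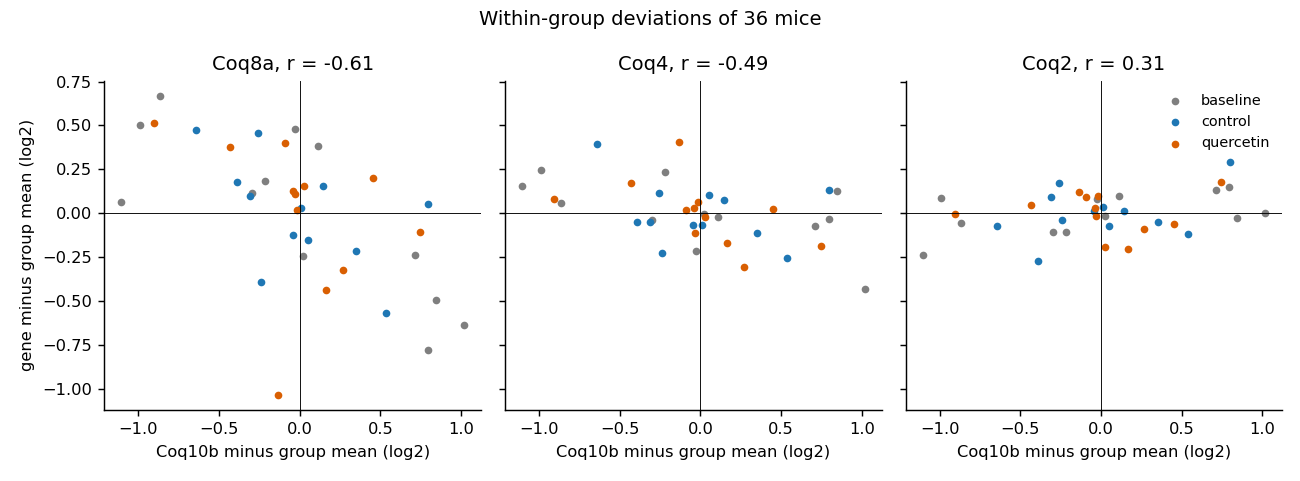
Deviation of each of 36 mice from its group mean (log2), Coq10b on the x axis and Coq8a, Coq4 or Coq2 on the y axis, coloured by group. Coq8a falls as Coq10b rises (r = -0.61), Coq4 less steeply (r = -0.49), and Coq2 has r = 0.31.

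The genes most like Coq10b between mice were not coenzyme Q genes. Over 13512 other genes and 36 group-centred values, the 10 highest correlations ran from 0.76 to 0.81. They belonged to Bnip3, a mitophagy receptor of the outer mitochondrial membrane (r = 0.81), the oxysterol-binding protein gene Osbpl2 (0.80), the deubiquitinase gene Usp2 (0.80), Tef (0.79), the secreted factor Nrg4 (0.79), Nr1d2 (0.79), Ankrd12 (0.79), Ivns1abp (0.77), Ciart (0.76) and Gde1 (0.76). Tef, Nr1d2 and Ciart are genes of the circadian clock or its output. Among the 5 lowest were Asap2 (-0.81), Lrfn3 (-0.80), Spon2 (-0.79) and the sphingosine kinase gene Sphk2 (-0.78). In single groups the r of the first 10 ran from 0.35 (Nr1d2 in control mice) to 0.93. In quercetin minus control 8 of these 10 were called higher, beside 1.49% of all probes, and Asap2 (-0.58), Lrfn3 (-0.79) and Spon2 (-0.98) were called lower, beside 0.863%. These genes were chosen for their likeness to Coq10b, which was itself chosen by quercetin minus control. Neither the correlations nor the calls in that contrast therefore carry a test, and nothing is read from the number called.

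On the list of 15 clock genes 13 were in the table, and 8 had a slope on Coq10b past the threshold (5 in its direction, 3 opposite), beside 2.99% of all probes. The D-box factor Dbp had a slope of 0.99 (adjusted p = 0.000136) and r = 0.73, and the activator Arntl (BMAL1) a slope of -0.80 (adjusted p = 0.000267) and r = -0.72. Ciart had the steepest positive slope on the list, 1.20. With the numbers taken apart, 4 of the 13 passed (Ciart, Nr1d2, Tef and Dbp), and r was 0.59 for Dbp and -0.57 for Arntl (slope adjusted p = 0.0625). In control minus baseline 2 of the 13 were called, beside 21.3% of all probes. At an unadjusted p under 0.05 there were 8 in that comparison, beside 7722 of 21781 probes. Its differences were positive for 3 and negative for 10 of the 13, with Arntl at 0.61 and Ciart at -0.78. In quercetin minus baseline 0 were called, beside 11.9%, and 1 had an unadjusted p under 0.05, beside 5766 of 21781 probes. In quercetin minus control 7 of the 13 were called (5 higher, 2 lower), beside 2.36% of all probes, with Dbp at 0.92 and Arntl at -0.998, where Coq10b was at 0.89. The labels give no time of day at death. The clock list was drawn up with earlier results of these data known, and Tef, Nr1d2 and Ciart were also chosen above for their likeness. The counts and adjusted p-values of this list are therefore descriptive. The part of the clock genes in the Coq10b values was not tested.

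**Figure D4:**
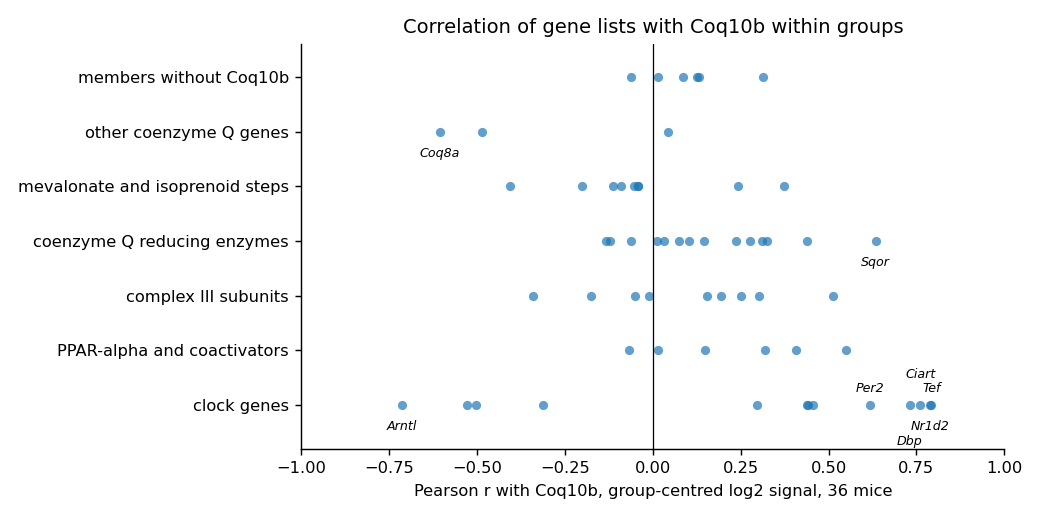
Pearson r with Coq10b over 36 group-centred values (x axis) for every gene of 7 lists (rows, 1 point per gene), with genes beyond 0.6 in either direction named. The 6 other members lie between -0.06 and 0.31, and the clock genes between -0.72 and 0.79.

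Genes around coenzyme Q gave 0 calls in quercetin minus control on the 3 lists that follow, beside 2.36% of all probes. Nothing is read from these zeros. In control minus baseline 21.3% of all probes were called, in quercetin minus baseline 11.9% and with the slope 2.99%. At an unadjusted p under 0.05 there were 3359 of 21781 probes in quercetin minus control and 7722 in control minus baseline. There were 5766 in quercetin minus baseline and 3745 of 21778 with the slope. Of the 9 genes of the mevalonate pathway and isoprenoid steps 0 were called by limma in quercetin minus control (3 at an unadjusted p under 0.05). Ggps1, the geranylgeranyl diphosphate synthase, was the 1 called in quercetin minus baseline (-0.17, adjusted p = 0.031). The dimmer Ggps1 probes gave -0.02 and -0.06 (adjusted p = 0.811 and 0.64). Of 14 enzymes that reduce coenzyme Q, 0 were called in quercetin minus control (3 at an unadjusted p under 0.05) and 4 in control minus baseline, beside 21.3% of all probes. The proline dehydrogenase Prodh fell by 0.46 (adjusted p = 0.0028), the complex II subunit Sdha by 0.26 (adjusted p = 0.02) and the sulphide oxidase Sqor by 0.24 (adjusted p = 0.0303), and the glycerol phosphate dehydrogenase Gpd2 rose by 0.31 (adjusted p = 0.00044). The dimmer Sdha probes gave -0.03 and -0.01 (adjusted p = 0.84 and 0.938) and the dimmer Gpd2 probe 0.09 (adjusted p = 0.328). In quercetin minus baseline Prodh and the choline dehydrogenase Chdh were called, the second at 0.20. Sqor was the 1 gene of this list that moved with Coq10b between mice (slope 0.23, adjusted p = 0.00661, r = 0.63), and with the numbers taken apart it no longer passed (adjusted p = 0.12). Of 9 complex III subunits, which oxidise coenzyme Q, 0 were called in any of the 3 comparisons or with the slope. At an unadjusted p under 0.05 there were 0 in quercetin minus control, 1 in control minus baseline, 0 in quercetin minus baseline and 1 with the slope.

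A list of PPAR-alpha, coactivators and other transcription factors held 6 genes (Ppara, Ppargc1a, Ppargc1b, Nrf1, Tfam and Esrra). Of these, 3 were called lower in control minus baseline, beside 21.3% of all probes called in either direction. In quercetin minus control 0 were called, beside 2.36%, and 1 had an unadjusted p under 0.05, beside 3359 of 21781 probes. Ppargc1b, a coactivator of mitochondrial genes, had control minus baseline of -0.62 (adjusted p = 0.0072) and a slope on Coq10b of 0.44 (adjusted p = 0.0232, or 0.278 with the numbers taken apart). Ppargc1a and Tfam were lower by differences of -0.43 and -0.30. The dimmer Tfam probes gave 0.10 and -0.10 (adjusted p = 0.277 and 0.188).

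Markers on the lists of liver cell types were called in places. Of all probes, 2.36% were called in quercetin minus control, 21.3% in control minus baseline and 11.9% in quercetin minus baseline. With the slope on Coq10b it was 2.99%. Nothing is read from the number of markers called. In quercetin minus control Sox9, 1 of 4 cholangiocyte markers, fell by 0.60 and Pecam1, 1 of 4 endothelial markers, rose by 0.38. All 4 cholangiocyte differences were negative, while 2 endothelial differences were positive and 2 negative. No marker on the hepatocyte, Kupffer cell, stellate cell, red blood cell or lymphocyte lists was called. The summed cholangiocyte level ran from 9.87 to 10.59 at baseline, 10.51 to 11.20 in control and 10.11 to 10.57 in quercetin mice. The summed endothelial level ran from 12.31 to 12.67, 12.25 to 12.78 and 12.13 to 12.68. With Coq10b between mice, Sox9 had a slope of -0.32 and the stellate cell marker Lrat 0.32, and both passed (Lrat not with the numbers taken apart, adjusted p = 0.324, and Sox9 not with the slide as a block). In control minus baseline Krt19, Krt7 and Sox9 were called higher, as was Hba-a1 of the red blood cell list (0.93). Pecam1 (-0.34) and the hepatocyte marker Cps1 (-0.32) were called lower. Differences there were positive for 3 of 5 hepatocyte markers, 2 of 4 endothelial markers and 1 of 2 red blood cell markers. The dimmer Krt7 probe gave 0.03 (adjusted p = 0.826). In quercetin minus baseline Hba-a1 was called higher (1.21). Alas2, also of the red blood cell list (-0.26), Cps1 (-0.45) and the hepatocyte marker Ttr (-0.33) were called lower. Of the 5 hepatocyte markers 2 had positive and 3 negative differences in that comparison. Serpina1a, Hbb-b1 and Cd79a were not in the table. The part of these cells in the coenzyme Q gene values was not tested.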

How the data were processed

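RNA of 36 mouse livers was labelled with Cy5 and each sample was hybridised on an Agilent whole-mouse genome array against 1 Cy3-labelled pool of the same livers. The deposited scanner files hold median and background signal intensities of both dyes and a log10 ratio for each spot. The submitters' processing notes name Agilent Feature Extraction version 10.5.1.1 for them, and the study's methods name an earlier version. The authors also deposited a processed table of log2 values for 23256 spots, those with mean Cy5 and Cy3 signals 2 times above background according to the methods. Its values followed log2 Cy5 minus log2 Cy3 plus the spot's mean log2 Cy3, with each array shifted to 1 median (lowest r over arrays 0.9999, computed here) and no background subtraction. Direction is sample over pool.

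Spots of 1 probe were averaged, which left 21781 probes. Each comparison was fitted on the 24 arrays of 2 groups with limma 3.58.1 in R 4.3.3, two-sided, with Benjamini-Hochberg adjustment over all probes and a threshold of 0.05. Adjusted p-values come from these fits. A gene is described by its brightest probe. Movement with Coq10b between mice of 1 group was fitted with limma on 36 arrays with group and group-centred Coq10b as terms. Correlations of group-centred values carry permutation p-values (100000 permutations within groups). Scripts were tested on simulated data. Probes were named through RefSeq accessions, then current or older symbols, then the gene name in the scanner files alone (1791 probes), and 6284 of 41174 stayed unnamed. Each sample is a separate mouse by its number. All arrays were scanned on 1 day, on 9 slides of 4 arrays that mix the groups.

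Members, gene lists, motifs and tests were chosen with earlier results of these data known. Named genes were all members, the 10 genes with the highest and the 5 with the lowest r with Coq10b, and up to 4 called genes of each list. Of these, 1 gene is not reported here. Alternatives covered scanner log ratios, Cy5 alone, scaling, filters, the methods' test, array weights, slide and replicate blocks and leaving out the array that stood apart. A split of the replicate numbers was added after seeing the data. The number of arrays limits the precision.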

Additional observations from a re-analysis of the deposited data

How the results depend on the processing

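The quercetin minus control difference of Coq10b, the contrast that chose the gene, stayed between 0.80 and 0.93 (log2) under 15 alternatives. The number of probes called in that comparison fell from 513 to 77 with median centring of the scanner ratios, 175 with Cy5 alone and 210 with the slide as a fixed block, and rose to 804 with array weights. Control minus baseline fell from 4645 to 3069 with Cy5 alone, and quercetin minus baseline went from 2596 to 396 with median centring, 1165 with Cy5 alone and 4220 with array weights. Median centring turned the split of higher and lower calls from 325 and 188 to 25 and 52 in quercetin minus control and from 2384 and 2261 to 3086 and 545 in control minus baseline. In quercetin minus baseline the split of 1442 and 1154 became 1542 and 1974 with the Feature Extraction ratio and 424 and 741 with Cy5 alone. Coq10b control minus baseline passed the threshold under 2 of 14 alternatives, array weights (-0.60, adjusted p = 0.037) and the replicate block given below. In control minus baseline 1 member was called with loess ratios, the Feature Extraction ratio, quantile normalization and all probes of the array (each time Coq9, lowest adjusted p = 0.0189), and in quercetin minus baseline 1 was called with array weights (Coq6, adjusted p = 0.0425). Same-numbered mice did not deviate together (median r of -0.0097, 0.061 and 0.033 in the 3 comparisons), so the numbers were not taken as pairs. With the replicate block, Coq10b control minus baseline was -0.54 with adjusted p = 0.0443 (1 member called), and the probes called were 360, 4636 and 2372. Probes moving with Coq10b within groups numbered 651, against 75 with Cy5 alone, 336 with the slide as a block, 393 with the replicate block and 107 with the numbers 1 to 6 and 7 to 12 apart. They numbered 170 in baseline mice alone and 0 in control or quercetin mice alone (1464 and 1697 at an unadjusted p under 0.05). The split of same and opposite direction, 446 and 205, became 387 and 359 with loess ratios and 33 and 42 with Cy5 alone. No member other than Coq10b was called there under any of these 9 alternatives. Coq8a lost its slope call in control mice alone (-0.40), in quercetin mice alone (-0.36) and with the numbers apart. The causes were not tested.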
